A study of Rattus norvegicus with 6 samples.

Results

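In cultured neonatal heart muscle cells, 10 rat genes that handle the electrons, acyl-CoA esters and proton leak around fatty acid oxidation were followed: Etfa, Etfb and Etfdh of the electron-transfer flavoprotein system, the thioesterase genes Acot1 and Acot2, the uncoupling protein genes Ucp2 and Ucp3, the malonyl-CoA genes Acacb and Mlycd, and Ech1. They were chosen by name, as every row of the deposited mRNA table whose RefSeq transcript belongs to one of them. Of the 10 genes 8 had a row, 1 each, among the 20734 rows of the table. Mlycd and Ech1 had none under their RefSeq accessions and are not analysed here. The samples were 3 arrays of neonatal rat ventricular cardiomyocytes given 10 µM isoproterenol for 24 h and 3 arrays of untreated control cells, all from Sprague-Dawley rats aged 1 to 3 days. Isoproterenol is an agonist of beta-adrenergic receptors, and the labels call the treated cells hypertrophic. The protocol was to remove fibroblasts by attachment to an uncoated flask, though fibroblast markers were still detected, as given below. The medium held no serum for 24 h before treatment. The cells are those of newborn and not of adult heart. The replicates are called biological in the design text, yet no label names a litter or culture for them, and p-values therefore reflect only how these samples spread, which may be technical. That text also calls the treated replicates transfected and the labels speak of several passages, neither of which the protocol mentions.

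The electron-transfer flavoprotein, a dimer of the Etfa and Etfb products, collects electrons from the acyl-CoA dehydrogenases of the mitochondrial matrix, and the Etfdh product passes them on to ubiquinone in the inner membrane. Acyl-CoA thioesterases split acyl-CoA into free fatty acid and coenzyme A; the Acot1 enzyme lies in the cytosol and the Acot2 enzyme in mitochondria. Ucp2 and Ucp3 encode carriers of the inner membrane that are related to the uncoupling protein of brown fat. Acacb encodes the acetyl-CoA carboxylase at the mitochondrial surface, whose product malonyl-CoA blocks the entry of long-chain fatty acids. Many genes of this group are known targets of the fatty acid receptor PPAR alpha in the heart.

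The arrays lay on 2 slides that were scanned separately. Isoproterenol replicate 1 shared slide 1 with the 3 controls, and isoproterenol replicates 2 and 3 lay on slide 2. On slide 2 the signal was dimmer, with a 75th percentile over non-control spots of 198 and 240 scanner units, against 514 to 562 on slide 1. The raw signal of negative control spots was higher there, with medians of 87 and 84 units against 27 to 30 on slide 1. Slide 2 thus differed in background as well as in brightness. Between 61.0% and 70.6% of the mRNA probes were well above background on slide 2, against 97.5% to 99.7% on slide 1. Slide and treatment therefore partly coincide, and a value within slide 1 (1 isoproterenol array against 3 controls) is given beside the results. It rests on isoproterenol replicate 1 alone, which is assumed to vary as the controls do. Signals below are given as multiples of the array's own 75th percentile, taken here over probes, with the spots of a probe averaged. Changes are log2 differences, isoproterenol minus control, ± the SE of the limma model (n = 3 per group). A gene is said to have fallen or risen where limma's adjusted p, by the Benjamini-Hochberg method over 20032 mRNA genes, was below 0.05.

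Isoproterenol-treated cells had less of Acot1, Acot2, Ucp2 and Etfdh than control cells, by 2.28-fold for Etfdh to 3.91-fold for Acot1. Acacb also passed as lower, but it was well above background on all 3 control arrays and on 1 isoproterenol array only. Under normexp background correction its change was −0.0019 (limma adjusted p = 0.996). That correction adds 50 units to every spot before scaling, which weighs most on dim probes and on the dimmer slide 2. Its value therefore cannot decide whether Acacb fell. The table holds only rows detected on at least 3 arrays, and the other 7 genes were detected on all 6. Etfa, Etfb and Ucp3 did not pass the threshold. Of 8 genes tested 5 fell, 0 rose (0 also at limma's unadjusted p under 0.05) and 3 did not pass. Of all genes tested 15.8% changed, 5.81% were lower and 9.99% were higher (2001 higher and 1164 lower in number; 2086 and 740 under normexp, and 1356 and 1942 when arrays were scaled over the probes detected on all of them). The median change of the 8 genes was −1.09, against 0.07 for all genes tested. The median of all genes was 0.37 under normexp and −0.07 in the authors' deposited table. In the same 5 genes all 3 isoproterenol values lay below all 3 control values; the groups were apart in one or the other direction in 41.4% of all genes. With slide as a block 4 of the 8 fell (Acot1, Acot2, Ucp2 and Etfdh), against 3.60% of all genes lower in that fit. Within slide 1 alone 3 fell (Acot2, Ucp2 and Etfdh), against 2.65% of all genes. In limma's fit of the values that the authors deposited in their table, 6 genes fell, Etfb being the addition, against 6.49% of all genes. In these bulk cultures fewer cells of a type and less RNA per cell cannot be told apart.

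**Figure D1:**
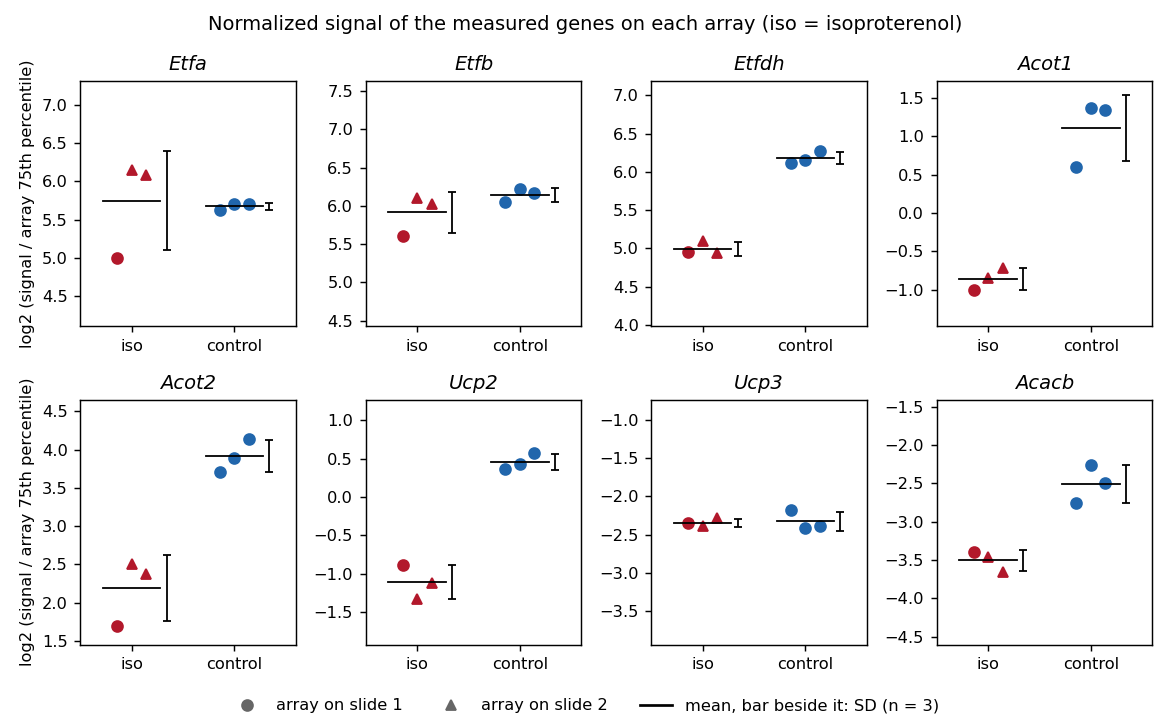
Log2 of the signal over the array's 75th percentile for each measured gene (1 panel a gene, each spanning the same number of log2 units). Points are arrays, isoproterenol left and control right, circles on slide 1 and triangles on slide 2, with the group mean and SD (n = 3); the groups are apart for Etfdh, Acot1, Acot2, Ucp2 and Acacb, and overlap for Etfa, Etfb and Ucp3.

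Of the electron-transfer genes, Etfdh (NM_198742) fell while the 2 subunits of the flavoprotein did not pass the test. The signal of Etfdh was 30.9, 34.1 and 30.6 times the 75th percentile in isoproterenol replicates 1 to 3, against 69.6, 71.0 and 77.4 in control replicates 1 to 3. The treated arrays of both slides were alike and every one lay well below the lowest control. The change was −1.19 ± 0.16, a 2.28-fold lower level (limma adjusted p = 0.00798), and −1.23 within slide 1 (adjusted p = 0.0356). It was no longer past the threshold without control replicate 2 (adjusted p = 0.0517) or control replicate 3 (adjusted p = 0.0609), although its change stayed between −1.59 and −1.12 under 19 alternatives. Some of these alternatives, named in the last section, could not move the change.

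Etfa (NM_001009668), the alpha subunit, had 32.0, 71.1 and 67.7 times the 75th percentile in the isoproterenol arrays, against 49.2, 52.1 and 51.9 in the controls. The treated array on slide 1 was below every control and the 2 on slide 2 were above every control. The change over all arrays was 0.07 ± 0.32 (limma adjusted p = 0.89), with a 95% interval from −0.69 to 0.83, while it was −0.67 within slide 1 (adjusted p = 0.0697) and 0.44 without isoproterenol replicate 1, where it passed (adjusted p = 0.0235). In the authors' deposited table the 3 treated arrays had log2 values of 13.77, 14.50 and 14.47, against 14.54, 14.63 and 14.60 in controls. All treated values were lower in that table, and limma's fit of it gave −0.35 (adjusted p = 0.309), or −0.82 within slide 1 (adjusted p = 0.0462).

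Etfb (NM_001004220), the beta subunit, had 48.9, 68.9 and 65.2 times the 75th percentile in the isoproterenol arrays, against 66.0, 74.8 and 71.7 in the controls. Only the treated array on slide 1 and that of replicate 3 lay below every control, so the groups overlapped. The change was −0.23 ± 0.19 (limma adjusted p = 0.414) and −0.53 within slide 1 (adjusted p = 0.115). Etfb passed under quantile normalization, at −0.66 (adjusted p = 0.033), and in the authors' deposited table, where it had 14.40, 14.45 and 14.41 with isoproterenol, against 14.95, 15.20 and 15.09 in controls (−0.66, limma adjusted p = 0.0319). The calls of Etfa and Etfb thus differed between scalings and slides. By sign, Etfb and Etfdh were lower under all 19 alternatives, while Etfa changed sign. Etfdh passed the threshold in 17 of the 19, and Etfa and Etfb in 2 each.

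Both thioesterase genes fell, Acot1 to 25.6% and Acot2 to 30.3% of the control level. They are neighbours on rat chromosome 6 with 0 protein-coding genes between them in the GRCr8 annotation. Acot1 (NM_031315) had 0.496, 0.557 and 0.605 times the 75th percentile with isoproterenol, against 1.52, 2.58 and 2.54 in controls. Control replicate 1 was lowest of the controls, yet it was still well above the highest treated array. The change was −1.97 ± 0.25, a 3.91-fold lower level (limma adjusted p = 0.00723), and −2.12 within slide 1, where it did not pass (adjusted p = 0.0535). Without control replicate 3 it missed the threshold as well (adjusted p = 0.0506), at −1.85.

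Acot2 (NM_138907) had 3.25, 5.69 and 5.18 times the 75th percentile with isoproterenol, against 13.1, 14.9 and 17.6 in controls. The treated array of slide 1 was the lowest of all 6, and the groups were far apart. The change was −1.72 ± 0.26, a 3.30-fold lower level (limma adjusted p = 0.0103), and −2.21 within slide 1 (adjusted p = 0.0311). It was not past the threshold without control replicate 2 (adjusted p = 0.0566) or control replicate 3 (adjusted p = 0.063). The 2 genes encode closely related proteins, and the array files give no probe sequence, so how far each probe also reads the other transcript was not tested.

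The promoters of this neighbouring pair that moved the same way are shown from RefSeq (build GRCr8), 250 bases before to 50 after each gene's start, 5′ to 3′. Capitals mark TGACG on either strand, the shorter core of the cAMP response element.
Acot1, chr6:109367024-109367323 (+ strand): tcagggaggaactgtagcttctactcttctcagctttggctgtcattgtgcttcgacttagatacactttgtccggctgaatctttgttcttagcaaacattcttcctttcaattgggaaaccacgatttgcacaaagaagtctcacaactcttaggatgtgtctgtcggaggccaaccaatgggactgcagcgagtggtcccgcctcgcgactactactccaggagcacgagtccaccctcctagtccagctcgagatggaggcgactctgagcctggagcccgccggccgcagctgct
Acot2, chr6:109342590-109342889 (+ strand): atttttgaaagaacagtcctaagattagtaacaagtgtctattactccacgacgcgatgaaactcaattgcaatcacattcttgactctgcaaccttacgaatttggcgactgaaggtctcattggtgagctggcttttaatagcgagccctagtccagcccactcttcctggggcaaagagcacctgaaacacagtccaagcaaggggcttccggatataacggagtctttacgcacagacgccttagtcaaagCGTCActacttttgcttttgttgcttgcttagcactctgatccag
The Acot2 window held 1 such match, on the opposite strand and 5 bases after the start, and the Acot1 window held 0. The letters are also found in 21.2% of the 33469 rat promoters of that table.

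The 2 uncoupling protein genes, which lie next to each other on chromosome 1 with 0 protein-coding genes between them, differed. Ucp2 (NM_019354) had 0.542, 0.398 and 0.458 times the 75th percentile with isoproterenol, against 1.29, 1.35 and 1.48 in controls. Every treated array lay far below the lowest control, on both slides. The change was −1.57 ± 0.18, a 2.97-fold lower level (limma adjusted p = 0.00577), and −1.34 within slide 1 (adjusted p = 0.0344). Ucp2 was the 1 gene of the 8 that fell under all 19 alternatives run, with changes from −1.81 to −1.24 and adjusted p from 0.000469 to 0.0491. Some of these alternatives could not move the size of its change.

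Ucp3 (NM_013167) had 0.196, 0.191 and 0.205 times the 75th percentile with isoproterenol, against 0.220, 0.188 and 0.191 in controls. The groups overlapped fully, and the 6 values were the closest to each other of any of the 8 genes. The change was −0.02 ± 0.16 (limma adjusted p = 0.947), with a 95% interval from −0.40 to 0.36, and −0.03 within slide 1 (adjusted p = 0.926). Its signal was low, at 117, 39.4 and 51.0 scanner units with isoproterenol and 120, 110 and 106 in controls, but was well above background on all 6 arrays. Its slide 2 values lay below the raw signal of negative control spots there (87 and 84 units), which still includes the background. Under normexp background correction the change was 0.34 (limma adjusted p = 0.21), a value that the 50 added units also affect at such low signals.

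The promoters of this pair, of which 1 gene fell and the other did not pass, are shown in the same way, with capitals for AGGTCA on either strand, the core letters bound by PPAR and related nuclear receptors.
Ucp2, chr1:164251123-164251422 (+ strand): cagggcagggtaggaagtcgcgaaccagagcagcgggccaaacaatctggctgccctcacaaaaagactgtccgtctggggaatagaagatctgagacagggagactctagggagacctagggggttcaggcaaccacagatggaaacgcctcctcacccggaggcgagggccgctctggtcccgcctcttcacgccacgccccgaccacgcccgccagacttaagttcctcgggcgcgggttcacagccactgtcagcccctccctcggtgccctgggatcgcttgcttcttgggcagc
Ucp3, chr1:164227660-164227959 (+ strand): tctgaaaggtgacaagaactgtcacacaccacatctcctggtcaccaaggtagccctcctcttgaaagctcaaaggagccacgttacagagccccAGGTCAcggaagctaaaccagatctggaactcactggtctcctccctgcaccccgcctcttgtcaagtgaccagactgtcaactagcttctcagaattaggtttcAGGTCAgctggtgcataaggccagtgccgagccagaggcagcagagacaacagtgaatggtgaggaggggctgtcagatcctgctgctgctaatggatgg
The Ucp3 window held these letters at −155 and at −50 from the start, and the Ucp2 window held 0. Of the 9 promoters of the 10 genes found in the RefSeq table, 2 held AGGTCA on either strand (Ucp3 and Acacb), against 16.2% of all 33469. None of the 9 held the full cAMP response element TGACGTCA (1.83% of all), the E-box CACGTG (6.42%), or TCAAGGTCA, the site of oestrogen-related receptors, which includes AGGTCA (0.433%). None held the PPAR site of 2 AGGTCA copies in a row with 1 base between, in exact form (0.054% of all) or with the fourth base of each copy left free (0.415%). These windows are short, and the absence of the letters from them says nothing of the factors.

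Acacb (NM_053922), the carboxylase gene, had the lowest signal of the 8 and was the least certain fall. It had 0.0953, 0.0909 and 0.0794 times the 75th percentile with isoproterenol, against 0.147, 0.208 and 0.177 in controls. The groups did not overlap, but on both slide 2 arrays the probe was not well above background, at 18.8 and 19.8 scanner units, against 57.1 for isoproterenol replicate 1 and 80.6, 121 and 97.8 for controls. The change was −0.99 ± 0.19 (limma adjusted p = 0.0203), and −0.88 within slide 1 (adjusted p = 0.103). It also missed the threshold without control replicate 2 (−0.87, adjusted p = 0.0981), control replicate 3 (−0.99, 0.102), isoproterenol replicate 2 (−1.02, 0.0594) or isoproterenol replicate 3 (−0.92, 0.0818), and with slide as a block (adjusted p = 0.0841).

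**Figure D2:**
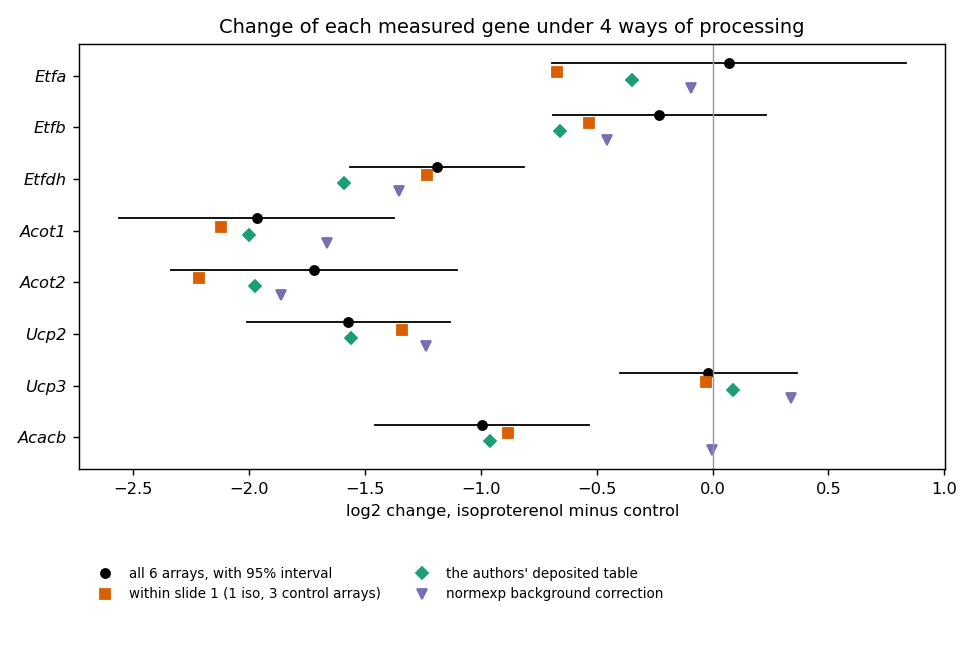
Log2 change of each measured gene, isoproterenol minus control, over all 6 arrays (black, with the 95% interval), within slide 1 (squares), in the authors' deposited table (diamonds) and under normexp background correction (triangles). Etfdh, Acot1, Acot2 and Ucp2 lie well left of zero in each, while Etfa changes side and Acacb lies at zero under normexp.

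Ratios between 2 genes on the same array do not depend on the array's scaling factor, and 4 pairs were compared with an exact permutation test over the 3 treated and 3 control arrays, two-sided, for which the smallest possible p is 0.1 (adjusted p over the 4 pairs in brackets). The log2 ratio of Ucp3 to Ucp2 was −1.47, −1.06 and −1.16 with isoproterenol, against −2.55, −2.85 and −2.95 in controls. All treated arrays were above all controls, with a difference of 1.55 (exact p = 0.1 [0.2], and 1.31 within slide 1). On the treated arrays of slide 2 this ratio rests on the low Ucp3 signals of 39.4 and 51.0 scanner units. The ratio of Etfdh to Etfa was −0.05, −1.06 and −1.14 with isoproterenol, against 0.50, 0.45 and 0.58 in controls, a difference of −1.26 (exact p = 0.1 [0.2]; −0.56 within slide 1). Thus on every treated array, slide 1 included, Etfdh stood lower relative to Etfa than on any control.

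The other 2 ratios overlapped between the groups. That of Acot1 to Acot2 was −3.05 ± 0.32 with isoproterenol and −2.81 ± 0.29 in controls (SD, n = 3 each; difference −0.25, exact p = 0.5 [0.5]). The difference had the other sign within slide 1 (0.10) and under normexp (0.20). That of Etfa to Etfb was −0.17 ± 0.38 with isoproterenol and −0.47 ± 0.05 in controls (SD, n = 3 each; difference 0.30, exact p = 0.4 [0.5]; −0.14 within slide 1), with −0.61 on the treated array of slide 1 and 0.04 and 0.05 on those of slide 2.

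**Figure D3:**
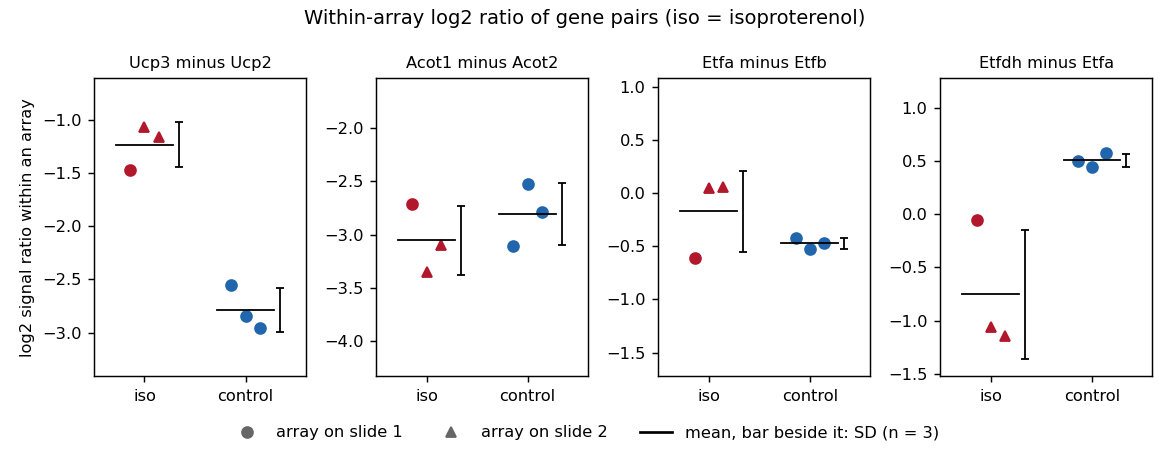
Log2 ratio of the signals of 2 genes within each array, isoproterenol left and control right, circles on slide 1 and triangles on slide 2, with mean and SD (n = 3). The groups are apart for Ucp3 against Ucp2 and for Etfdh against Etfa, where the treated array of slide 1 (−0.05) lies between the slide 2 arrays and the controls.

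Lists of related genes, 6 in all, place these values in their pathway. Of the dehydrogenases that feed the flavoprotein and genes of flavin supply, 5 of 18 tested fell and 1 rose, with a median change of −0.48 (within slide 1, 4 fell, 0 rose and the median was −0.79). The short-chain acyl-CoA dehydrogenase Acads fell (−1.10 ± 0.15; −1.16 within slide 1, adjusted p = 0.036), as did Ivd, of leucine breakdown (−0.98 ± 0.23; −1.36 within slide 1, adjusted p = 0.0356). Gcdh, of lysine breakdown, and Acad11 fell over all arrays (−1.35 ± 0.20 and −1.14 ± 0.19; limma adjusted p = 0.0102 and 0.0126) but did not pass within slide 1 (−1.11 and −1.10; adjusted p = 0.0647 and 0.0586). Slc25a32, a mitochondrial carrier for FAD and folate, rose by 0.92 ± 0.20 (limma adjusted p = 0.0273; 0.65 within slide 1, adjusted p = 0.129). Acadm, the medium-chain enzyme, was at −0.51 ± 0.29 (adjusted p = 0.246), and at −1.14 within slide 1 (adjusted p = 0.0362).

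Other acyl-CoA thioesterases went both ways, with 2 of 9 lower, 2 higher and a median change of 0.71. Acot3, of peroxisomes, fell (−1.58 ± 0.32; limma adjusted p = 0.0231) and so did the mitochondrial Acot13 (−1.53 ± 0.23; limma adjusted p = 0.0104), while the mitochondrial Acot9 rose by 1.77 ± 0.28 (1.15 within slide 1, adjusted p = 0.038) and the peroxisomal Acot8 by 0.86 ± 0.22 (0.44 within slide 1, adjusted p = 0.156). Within slide 1 the median was 0.05, Acot9 alone rose and 0 fell, with adjusted p = 0.116 for Acot3 and 0.07 for Acot13. Of 5 other uncoupling and nucleotide carriers 0 passed limma's threshold (0 also at an unadjusted p under 0.05), with a median of 0.26 that was −0.56 in the authors' deposited table. Ucp1, the uncoupling protein of brown fat, was detected on 1 isoproterenol and 2 control arrays and was at 0.36 ± 0.34 (adjusted p = 0.475; 0.16 within slide 1).

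Among genes around malonyl-CoA, 3 of 16 fell and 0 rose, also within slide 1. The median change was −0.25, but −0.03 within slide 1 and −0.04 under normexp. The 3 that fell belong to the carnitine shuttle that malonyl-CoA restrains: Cpt1b (−2.66 ± 0.17; −2.56 within slide 1), Cpt1a (−2.21 ± 0.22, detected on 2 isoproterenol arrays; −2.27 within slide 1) and Slc25a20 (−1.38 ± 0.18, limma adjusted p = 0.00798; −1.58 within slide 1). Acaca, the cytosolic carboxylase gene for fatty acid synthesis, was at 0.06 ± 0.24 (adjusted p = 0.874). Of the isomerases and reductases that handle unsaturated fatty acids, the role that Ech1 shares, 7 of 8 fell, with a median change of −1.16 (6 of 8 and −1.33 within slide 1). Pecr, a peroxisomal reductase, was at −3.0 ± 0.38 (limma adjusted p = 0.00688), the mitochondrial reductase Decr1 at −1.61 ± 0.18, the isomerase Eci1 at −1.28 ± 0.19 and Hsd17b4, of peroxisomal oxidation, at −1.25 ± 0.20; all 4 passed within slide 1 too.

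Of PPAR regulators and their other targets 16 of 24 fell and 0 rose, with a median change of −1.19 (−1.11 within slide 1, where 14 fell). Ppargc1a, a coactivator of mitochondrial genes, fell (−1.97 ± 0.18, limma adjusted p = 0.00312), and Ppara itself was lower by less (−0.75 ± 0.16, adjusted p = 0.0276; −0.63 within slide 1, adjusted p = 0.0889). Rxrg, a receptor partner of PPARs (−4.51 ± 0.36), Pdk4, which restrains pyruvate oxidation (−4.32 ± 0.28), and Plin5, a lipid droplet protein (−3.38 ± 0.56), were each detected on 1 isoproterenol array, and normexp gave them −1.98, −1.68 and −1.38. The 50 units that normexp adds shrink the changes of such dim probes. These lists were chosen with earlier results of the same arrays known, so their counts are a description.

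**Figure D4:**
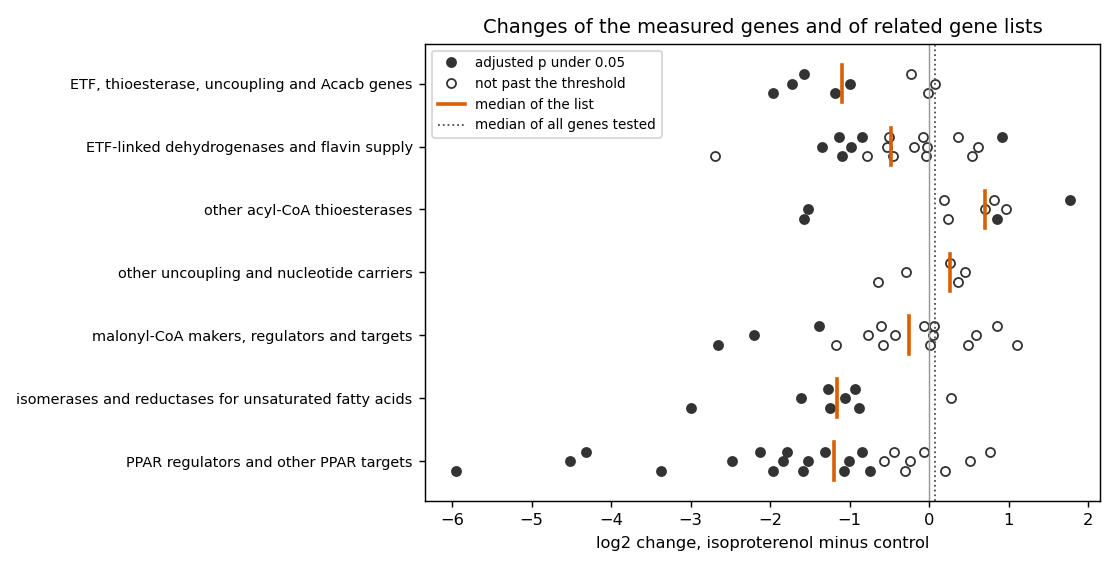
Log2 change, isoproterenol minus control, of every gene tested in the measured set and in 6 lists of related genes (1 row a list); filled points passed limma's adjusted p of 0.05, open points did not, orange bars are list medians and the dotted line is the median of all genes tested. The measured set has its median at −1.09, the unsaturated fatty acid enzymes at −1.16 and the PPAR list at −1.19, while the other thioesterases lie on both sides of zero.

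The labelled cell type was checked against markers. Of 12 cardiomyocyte markers 11 had a row, all 11 detected on all 6 arrays; their summed signal was 2107 to 3334 times the 75th percentile with isoproterenol and 1747 to 2057 in controls. Over all arrays 1 of them rose and 0 fell, whereas within slide 1 and with slide as a block 0 rose and 2 fell. Of 12 fibroblast markers 2 rose and 4 fell, with summed signals of 134 to 180 with isoproterenol and 157 to 166 in controls. Of 8 smooth muscle and pericyte markers with a row, among them Des and Acta2, which immature cardiomyocytes also express, 2 rose and 1 fell (277 to 583 with isoproterenol, 127 to 204 in controls). Of 8 macrophage and leukocyte markers with a row 1 rose (38.4 to 56.9 with isoproterenol, 28.4 to 40.9 in controls), and of 9 endothelial markers with a row 1 fell (14.5 to 16.1 with isoproterenol, 15.5 to 17.5 in controls). Of 5 erythroid markers with a row 1 fell (21.5 to 39.1 with isoproterenol, 27.3 to 32.4 in controls). Detected on all 6 arrays were 11 of the fibroblast, 7 of the smooth muscle, 7 of the macrophage, 5 of the endothelial and 1 of the erythroid markers. Within slide 1, 2 fibroblast markers and 1 endothelial marker fell, 0 rose in any of these lists, and 0 smooth muscle, macrophage or erythroid markers passed. Ucp2 is also known from leukocytes; the part of other cells in the changes of the 8 genes was not tested.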

How the data were processed

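Total RNA was measured on 6 one-colour Agilent arrays. Per the file headers, the scanner intensity values were background-subtracted by Agilent Feature Extraction before the authors deposited them. The authors' deposited mRNA table holds normalized log2 values; which tool made it is not stated in the sources used here. Scanner files name probes by design number only, so all 20734 table rows were matched to probes: 17735 by their values over 6 arrays (distance under 0.05 and under 0.25 of the next best), the rest by row order (2467 of them with slide 1 values). Neighbouring rows with a value match stood in spot order in 17734 of 17734 cases. RefSeq accessions were named through RefSeq's GRCr8 gene table (13956 of 14757 NM rows, 0 of 5977 Ensembl rows), which served for names, neighbours and promoter sequences only.

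Log2 of the processed signal minus each array's 75th percentile was tested with limma 3.58.1 in R 4.3.3, two-sided, on the brightest probe of each of 20032 genes. Outlier spots were left out, which touched none of the 8 genes; no spot was saturated. Every table row was well above background on at least 3 arrays, so the planned filter removed 0 rows. The number of arrays, 3 per group, limits the precision.

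The genes, lists and pairs were chosen with earlier results of these data known. All 10 genes are named; from each list at most 4 genes that passed, by size, in each direction, plus Ppara, Ppargc1a, Pdk4, Acaca, Cpt1b, Acadm, Ucp1 and Decr1. A gene that this rule names is not reported here. The fit was tested on simulated data that had the spread of the controls on every array and no slide effect. That test therefore does not cover the difference between slides. Alternatives were normexp (offset 50, on the median signal, the files used having no mean signal), other scalings, the authors' table, filters, slide and replicate blocks, slide 1 alone, array weights, probe averaging and each array left out.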

Additional observations from a re-analysis of the deposited data

How the results depend on the processing

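Over 19 alternatives (18 for Acacb, which is not tested where detection on all 6 arrays is required), the 5 genes that fell kept their direction in all 94 values (Acacb by −0.0019 under normexp) and their side of the threshold in 79. Several of these values could not differ from those reported. Leaving out the filter repeated the same fit, as the filter removed no row. Stricter detection, probe averaging and the replicate block could not move the size of a change in these genes. Slide as a block and slide 1 alone gave the same sizes. The number of genes changed, 3165 as reported, was 1436 with slide as a block, 1009 within slide 1, 1280 in the authors' table within slide 1 (an alternative chosen after seeing the data) and 10784 with array quality weights, and leaving out 1 array each gave 309 to 10373. With 1 array left out, between 1 and 6 of the 8 genes passed. The 1 was without control replicate 3, where 309 of all 20031 genes passed. The 6 were without isoproterenol replicate 1, where all controls lie on slide 1 and all treated arrays on slide 2. Of these 6, 5 were lower and 1, Etfa, was higher, and 10373 of all 20032 genes passed there. The replicate numbers did not pair the arrays: deviations from group means correlated at 0.0084, 0.052 and −0.026 for numbers 1 to 3, and 1 of 6 arrays correlated best with its own number. The replicate block gave 1390 genes and 4 of the 8.

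The sign of Etfa, 0.07 as reported, turned to −0.0926 under normexp, −0.35 under quantile normalization and in the authors' table, −0.17 when scaled over probes detected on every array, −0.67 with slide as a block and within slide 1, −0.82 in the authors' table within slide 1, and −0.13 and −0.098 without isoproterenol replicate 2 or 3; with 1 array left out it reached 0.442 at most, without isoproterenol replicate 1. That of Ucp3, −0.02 as reported, turned to 0.34 under normexp, 0.0873 under quantile normalization, 0.0881 in the authors' table, 0.0498 under median scaling, 0.0423 with array weights, and 0.054 and 0.0059 without control replicate 1 or isoproterenol replicate 2; with 1 array left out it ranged from −0.0594 to 0.054. The difference in the ratio of Acot1 to Acot2 was 0.20 under normexp. The other 39 of 40 ratio values kept their sign. Slide 1 alone is not among the 40, and there the differences for Acot1 to Acot2 and Etfa to Etfb changed sign. Of 114 counts over related lists 29 moved by more than 1.5 times, or from or to 0. The causes were not tested. The ratio of Acacb to Mlycd, which was planned, was not run because Mlycd had no row. Dim probes on slide 2 limit what can be said of Acacb.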
